A study of Caenorhabditis elegans with 2 samples.

Results

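CND-1 peaks on chromosome X of Caenorhabditis elegans are described here. Members are the peaks of the authors' thresholded list that lie on X and whose summit, the point of highest signal, has no tRNA, snoRNA or snRNA gene within 100 bp in the Ensembl annotation. They number 383 of the 1964 thresholded peaks, and 1268 autosomal peaks passed the same limit. A further 92 X peaks were left out by it, 89 of them at tRNA genes and 3 at snoRNA genes. The left-out peak nearest the limit lay 43 bp from a snoRNA gene with a signal of 226.0, and the nearest kept peak lay 119 bp from a tRNA gene with a signal of 207.8. Signal is the authors' own enrichment value for a peak, with no stated scale, and serves only to rank peaks within a list.

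The peaks come from chromatin immunoprecipitation with sequencing (ChIP-seq) on whole embryos, released by egg bleaching, pooled over stages and sexes and given an age of 3 hours in the labels. All animals were of strain OP349, genotype unc-119(ed3) III; wgIs349, in which the integrated transgene wgIs349 supplies CND-1 carrying GFP and FLAG at the C-terminus. An anti-GFP antibody was used, sonication gave fragments from 200 to 800 bp, and the 2 biological replicates form 1 group, so no condition is compared. The signal therefore reports the tagged protein of 1 transgenic line over all cells of the embryo, and the control experiment named in the labels was not used here. Peak lists hold no expression values against which the labelled tissue could be checked.

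CND-1 belongs to the NeuroD family of transcription factors, which have a basic helix-loop-helix (bHLH) domain, and is known for its role in embryonic neuron precursors and in motor neuron fate. Proteins of this class bind E-boxes, sites of the form CANNTG, as dimers. Chromosome X is present in a pair of copies in hermaphrodites and as a single copy in males, and a condensin-based dosage compensation complex loads onto both X chromosomes of hermaphrodite embryos at recruitment elements that share a GC-rich motif. Genes on X counted by the embryo as X signal elements, such as sex-1, fox-1 and ceh-39, set this sex-specific state through xol-1.

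The 100 bp centred on the summit is shown first for the strongest members that hold CAGATG, the commonest E-box at these summits, with at most 30 bp of UTR in the window, and for a member with 4 E-boxes, gogo-1. Sequences are from the plus strand of the ce11 assembly (RefSeq WBcel235), each is named by its nearest protein-coding gene, and capitals mark every E-box. CATCTG is CAGATG read on the other strand.
F09A5.3 X:13146134-13146233: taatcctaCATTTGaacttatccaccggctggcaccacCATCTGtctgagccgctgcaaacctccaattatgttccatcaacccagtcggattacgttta
M163.8 X:14486593-14486692: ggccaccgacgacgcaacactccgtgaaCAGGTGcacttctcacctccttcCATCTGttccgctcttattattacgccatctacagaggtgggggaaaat
C14E2.11 X:1801118-1801217: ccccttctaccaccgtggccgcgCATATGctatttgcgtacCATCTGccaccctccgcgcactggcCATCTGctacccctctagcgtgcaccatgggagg
W05H9.4 X:6259222-6259321: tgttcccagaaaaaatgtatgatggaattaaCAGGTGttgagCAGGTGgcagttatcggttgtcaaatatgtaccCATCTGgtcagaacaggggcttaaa
inx-3 X:5995837-5995936: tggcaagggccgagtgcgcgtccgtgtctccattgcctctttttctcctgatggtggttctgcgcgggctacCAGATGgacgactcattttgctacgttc
C04C11.25 X:14016739-14016838: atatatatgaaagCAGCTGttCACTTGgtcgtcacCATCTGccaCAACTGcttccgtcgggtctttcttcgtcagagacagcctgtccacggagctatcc
F09A5.3 X:13143330-13143429: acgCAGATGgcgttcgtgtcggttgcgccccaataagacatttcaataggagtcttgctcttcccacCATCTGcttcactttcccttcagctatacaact
F46H5.3 X:7236943-7237042: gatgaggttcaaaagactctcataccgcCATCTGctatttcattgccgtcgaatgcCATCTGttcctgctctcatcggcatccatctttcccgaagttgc
gogo-1 X:4125336-4125435: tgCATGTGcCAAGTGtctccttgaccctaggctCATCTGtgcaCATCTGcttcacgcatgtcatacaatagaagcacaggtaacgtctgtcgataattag

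The first 8 members shown ranked between 2 and 18 on X. The strongest of them, at X:13146059-13146315 in an intron of F09A5.3, had a signal of 575.8, and 281.1 and 299.6 in replicates 1 and 2. A second intronic peak of the same gene, 370.7 in signal, carried CAGATG 2 times. C04C11.25, at X:14016682-14016864 with a signal of 374.9, held 4 different E-boxes within 1 window. gogo-1 ranked 128th on X, with 173.5. The first 8 were picked for signal among members with CAGATG and gogo-1 for its number of E-boxes. These windows therefore cannot show how the number of E-boxes relates to signal.

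The strongest members with no E-box in the window and at most 30 bp of UTR are shown for contrast, also from the plus strand of ce11.
T13C5.6 X:6207819-6207918: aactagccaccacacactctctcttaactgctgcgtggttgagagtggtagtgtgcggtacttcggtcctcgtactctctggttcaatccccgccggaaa
sto-4 X:11643919-11644018: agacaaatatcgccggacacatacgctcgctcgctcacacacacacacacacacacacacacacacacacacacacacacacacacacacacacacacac
spat-3 X:4606472-4606571: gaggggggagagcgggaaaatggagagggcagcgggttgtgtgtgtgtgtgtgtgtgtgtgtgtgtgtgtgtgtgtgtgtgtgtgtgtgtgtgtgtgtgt
F13C5.2 X:593472-593571: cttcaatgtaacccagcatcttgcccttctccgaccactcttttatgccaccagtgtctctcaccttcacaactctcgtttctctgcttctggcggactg

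T13C5.6 had the strongest peak of all on X, at X:6207719-6208025, 182 bp upstream of its start, with a signal of 619.9 and replicate values of 303.3 and 319.9. The windows of sto-4 and spat-3, with signals of 487.6 and 396.6, consist mostly of a CA (or TG) dinucleotide repeat. Inside the windows the runs measure 65 and 63 bp and reach the right edge, so these are minimum lengths. Such runs were uncommon among the members. A run of at least 20 bp was present in 12 of 383 X windows (3.13%, 95% exact Clopper-Pearson interval 1.63 to 5.41), in 1 flank window, in 22 of 1268 autosomal windows (1.74%) and in 0.108% of all 100 bp tiles of X. Of the 12, 11 were CA runs. Whether reads placed in repeats contribute to these peaks was not tested.

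The window of T13C5.6 also held letters that recurred at other members. The 9-letter form GTTCNANNC, part of the B box at which tRNA genes are read by transcription factor IIIC, was searched on both strands after the strongest windows had been seen. It was no commoner at X summits than beside them, with 15 of 383 in both cases (3.92%), against 3.78% of X tiles, 3.54% of 100 bp windows at X transcript starts and 56.5% of the 92 peaks left out at non-coding RNA genes. Among the 15, the 3 strongest resembled each other well beyond those letters. They are shown in the orientation of the match, plus for T13C5.6 and ZK816.3 and minus for idpp-9, with the 9 letters in capitals.
T13C5.6 X:6207886-6207922: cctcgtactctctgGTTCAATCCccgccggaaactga
ZK816.3 X:3348081-3348117: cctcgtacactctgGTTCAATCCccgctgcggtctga
idpp-9 X:3914470-3914506: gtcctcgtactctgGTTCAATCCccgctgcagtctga

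These 3 members ranked 1, 42 and 76 on X, with signals of 619.9, 261.9 and 216.6. They shared an unbroken run of 18 letters, ctctggttcaatccccgc. That run occurred 3 times on X and 0 times on the autosomes, outside every annotated tRNA gene. The 3 copies are those of these members, from which the run was read, so their nearness to thresholded summits follows from how it was found. The nearest annotated tRNA, snoRNA or snRNA genes were 12201, 23363 and 55041 bp away.

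Relative to length, peaks were denser on X than on the autosomes together. The 383 members made up 23.2% of the 1651 nuclear peaks kept (95% exact interval 21.2 to 25.3), while X holds 17.7% of nuclear length and 13.7% of protein-coding genes. The 1964 strongest regions of each replicate, filtered in the same way, put 22.6% and 23.4% on X (mean 23% ± 0.58, SD, n = 2). Each replicate's list was made from its own alignment and from 1 further file that both lists share as input, so they are not fully independent. Density was 21.6 peaks per Mb on X and 15.4 on the autosomes, a ratio of 1.41, with ratios of 1.36 and 1.42 in the replicates. Single autosomes ranged from 9.61 per Mb on V to 20.6 on I, all below X. Per 100 protein-coding genes X had 14 peaks, above the 4.02 to 10.8 of the single autosomes. The peaks removed at tRNA, snoRNA and snRNA genes were also dense on X, with a ratio of 2.18.

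The share of X was lower among weaker regions. In the pooled list, filtered in the same way, 22.8% of the first 250 regions (interval 17.7 to 28.5) and 24.8% of the next 250 lay on X. The share was 21.5% in ranks 1001 to 2000, 20.6% in ranks 2001 to 4000 and 16.9% in ranks 4001 to 8000, and 16.5% beyond rank 8000. In replicate 1 the share was 20.4% in the first 250 regions (interval 15.6 to 25.9), 26.4% in the next 250 and 16.6% in the last class. In replicate 2 these values were 24.0% (interval 18.8 to 29.8), 24.8% and 17.1%. Both replicates thus ended lower, but replicate 1 did not fall steadily. Regions with low rank thus had an X share close to or below that of sequence.

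**Figure D1:**
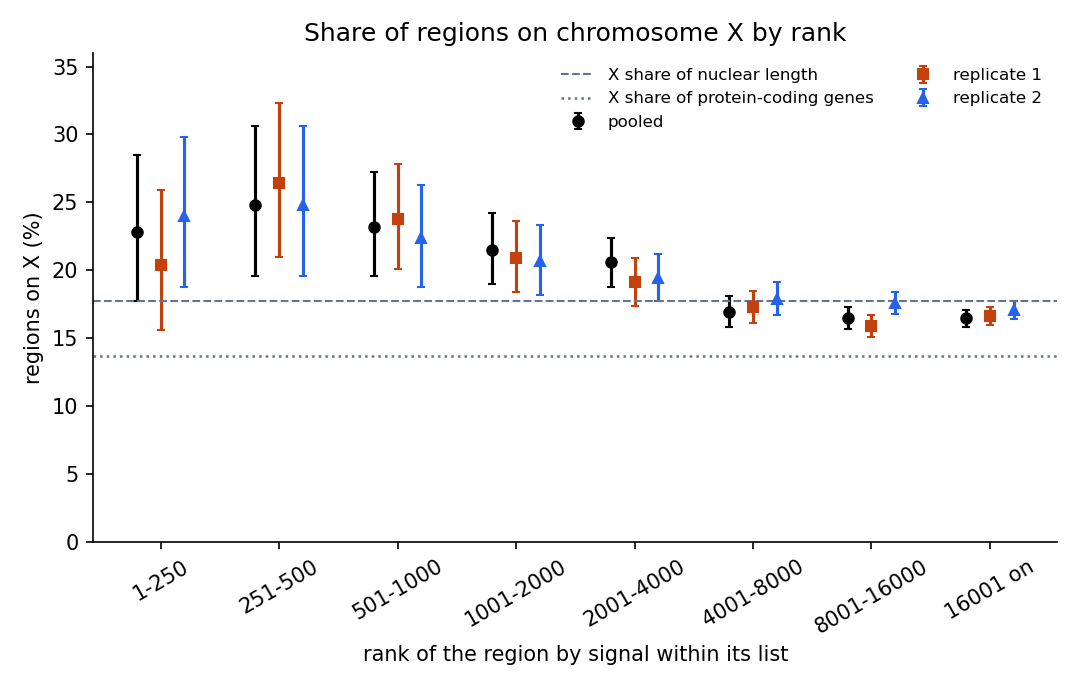
Percentage of regions on X (vertical axis) in classes of rank by signal (horizontal axis) for the pooled list and both replicate lists, with 95% exact intervals and lines at the X share of nuclear length (17.7%) and of protein-coding genes (13.7%). The share is 22.8% in the first pooled class and 16.5% in the last.

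Within the thresholded list, X peaks were about as strong as autosomal ones. Signal ran from 103.1 to 619.9 on X with a median of 144.6, and from 103.1 to 1204 on the autosomes with a median of 144.3. Of the members, 103 (26.9%) were among the 413 strongest kept peaks, against 24.4% of autosomal peaks (Fisher's exact test, two-sided, p = 0.346). Among the 165 strongest the order turned, with 8.88% of X peaks and 10.3% of autosomal ones (Fisher's exact test, p = 0.438). No difference in strength was detectable on either measure.

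Most members were found in both replicates, which the thresholding itself favours. Each replicate had a summit no farther than 100 bp away, within its 1964 strongest regions, for 261 members (68.1%, interval 63.2 to 72.8) and for 63.7% of autosomal peaks (Fisher's exact test, p = 0.127). In the full replicate lists it was present for 372 members. Across these 372 peaks the signals of both replicates had a Spearman correlation of 0.659 and a Pearson correlation of 0.726 on the log2 scale, given as a description, since the points share libraries. The median signal was 71.9 in replicate 1 and 76.9 in replicate 2.

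**Figure D2:**
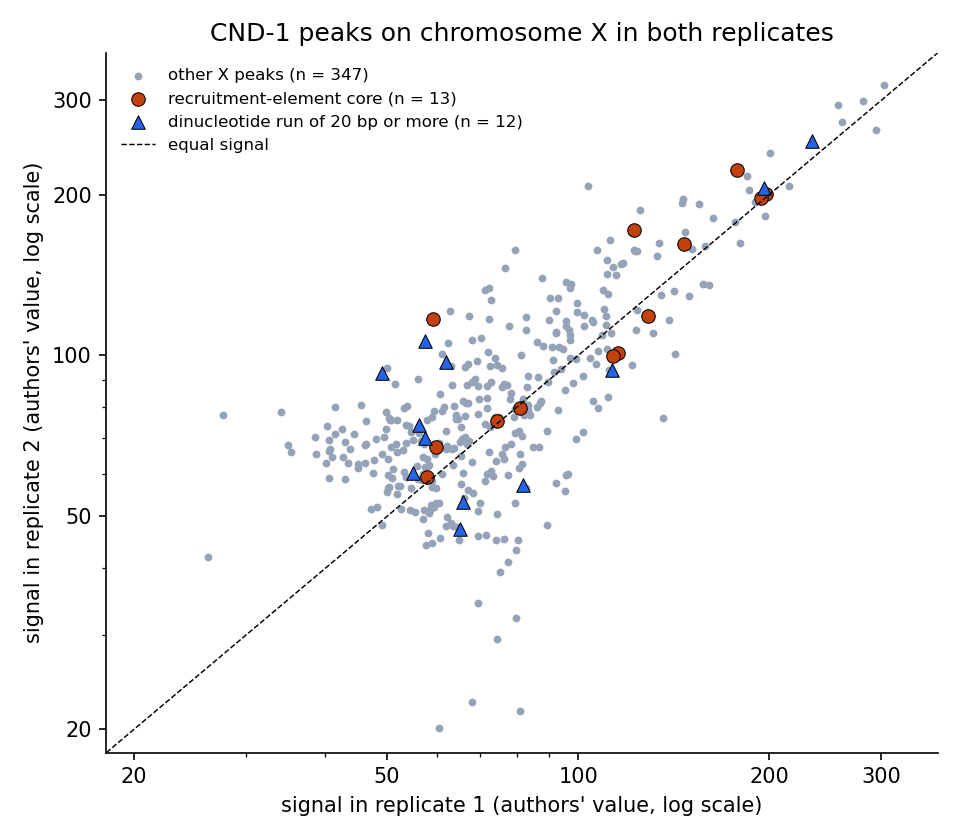
Signal of each X member matched in the complete list of replicate 1 and in that of replicate 2, replicate 1 against replicate 2 on log scales, with members that hold the recruitment-element core (13 circles) and members with a dinucleotide run of at least 20 bp (12 triangles) marked. The strongest member lies at 303.3 and 319.9, and the marked members spread over most of the range.

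By count, members lay mainly in promoters and between genes. With 1 category per summit, 138 members (36%) lay in a promoter, defined as 500 bp upstream to 100 bp downstream of a protein-coding transcript start, 129 (33.7%) were intergenic and 64 (16.7%) intronic. Coding exons held 9 members (2.35%), although they make up 18.1% of X sequence, and promoters make up 11.6% of it. Of X sequence 34.6% is intergenic, near the share of members, and 28.6% is intronic, above the share of members. Autosomal sequence is 14.8% promoter, 24.3% intergenic and 31.0% intronic. On the autosomes 41.2% of peaks were in promoters, 28.9% were intergenic and 21.6% intronic. None of these 3 differences passed Fisher's exact test after Benjamini-Hochberg adjustment over the 7 categories (adjusted p = 0.131 for each).

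The category of other genes, those not protein-coding, was the exception. It counts only summits that fall in no promoter, UTR, coding exon or intron of a protein-coding gene. Members in a non-coding gene that also lay in one of those were counted there instead, and their number was not analysed. This category held 36 members (9.4%, interval 6.67 to 12.8) but 54 autosomal peaks (4.26%), a difference of 5.14 percentage points (Fisher's exact test, p = 0.000265, adjusted p = 0.00185). The replicates alone gave 8.87% and 10% on X and 3.92% and 4.31% on the autosomes. By the same precedence, the category covers 3.21% of X and 3.94% of autosomal sequence. Of the 36, 33 lay in genes of the annotation class ncRNA, of which X has 2520 and the autosomes 5244, and 1 each in a lincRNA, an antisense RNA and a pseudogene. With only the stronger 50% of the peaks the values were 7.87% and 4.83% (Fisher's exact test, adjusted p = 0.313), and with promoters of 1000 bp upstream to 200 bp downstream they were 6.79% and 3.47% (adjusted p = 0.0593). The strongest member of this category lay at X:11605742-11606060 in the ncRNA gene F52D10.7, with a signal of 562.1 and replicate values of 294.1 and 263.9. It was 507 bp upstream of ftt-2, a gene for a 14-3-3 protein. The stronger member near T13C5.6, with 619.9, also lay in an ncRNA gene, C14F11.14, but counted as a promoter member.

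**Figure D3:**
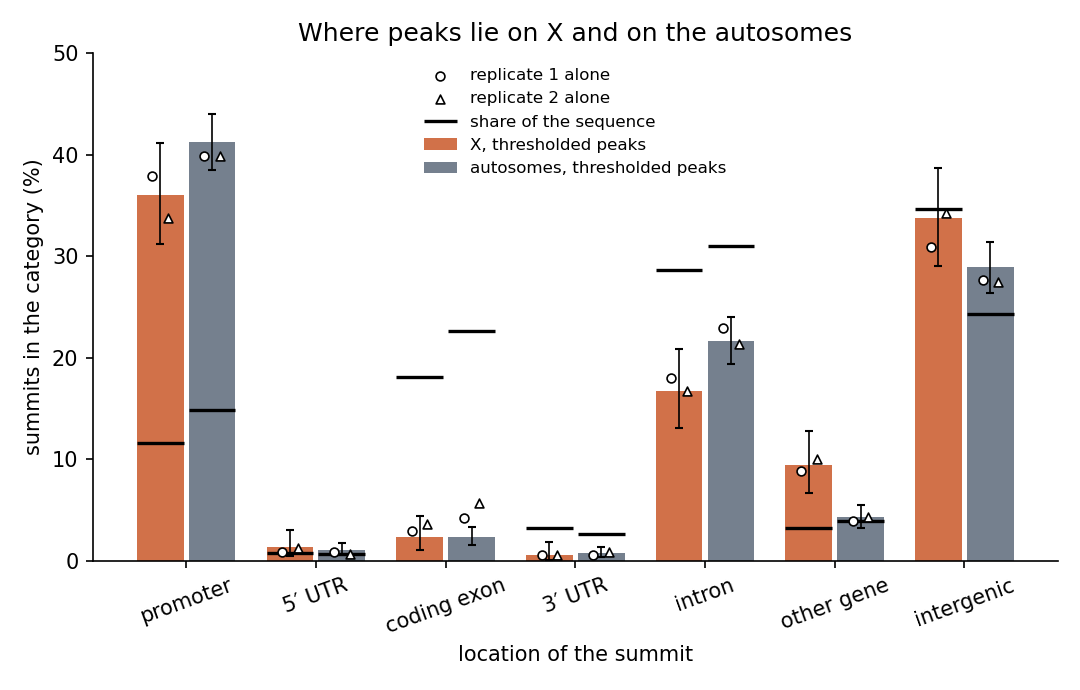
Percentage of summits in each location category for the 383 X members and 1268 autosomal peaks (bars with 95% exact intervals), for each replicate alone (open symbols) and for the sequence itself (black lines). Other genes hold 9.4% of X peaks and 4.26% of autosomal peaks, while promoters hold 36% and 41.2%.

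The median member lay 817 bp from the nearest protein-coding transcript start, against 680 bp on the autosomes and 1570 bp for X sequence as a whole. Within 500 bp of a start lay 153 members (39.9%) and 45.2% of autosomal peaks, against 18.8% of X and 24.1% of autosomal sequence. Beyond 3000 bp lay 72 (18.8%), against 15.2% of autosomal peaks (Fisher's exact test, p = 0.0959). Of sequence, 25.3% on X and 20.6% on the autosomes lies that far from a start. Among the 20 strongest members, the one farthest from a start lay in a coding exon of pks-1, 15164 bp from the start of C41A3.2, with a signal of 351.7. Cut by length into 3 equal stretches, the chromosome held 128, 128 and 127 members, and windows of 1 Mb held 13 to 33 per Mb, with the shorter last one at 16.7 per Mb. The even spread held for the replicates, with 119 to 127 in replicate 1 and 125 to 137 in replicate 2.

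Within 100 kb windows the members were uneven, with 38 windows holding 0 and 1 holding 9. That window, at X:6200001-6300000, has T13C5.6, lite-1, got-2.2, W05H9.4 and cest-16 as nearest genes. The second, at X:10500001-10600000, held 8 members, near vab-3, syd-2, bet-2 and sdn-1. vab-3, the Pax6 gene of the worm, had 3 intronic peaks, with signals of 218.8, 159.9 and 134.3. sdn-1, the syndecan gene, had an intronic peak of 223.5 and a further pair upstream, with 145.4 and 112.2. The upstream peak with 145.4 had no summit within 100 bp in the list of replicate 1 and 100.5 in replicate 2. The window at X:4600001-4700000 held 7 members, near spat-3, pqn-65, hosl-1 and hyl-2, as did 5 others.

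The window of a gene reached from 1500 bp before to 500 bp after any of its transcript starts, and a protein-coding gene with a summit in this window counted as bound. On X, 235 of 2731 genes were bound (8.6%, interval 7.58 to 9.72), against 6.69% of all 19973 nuclear genes and 6.39% of autosomal ones. Single autosomes ranged from 3.76% to 9.73%, so the X value lay within their range. Of the members, 229 (59.8%) lay in the window of at least 1 gene, 24 of them in the windows of more than 1, and 154 lay in none. Only 16 genes held more than 1 member in their window.

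Several genes carried a series of members in their body or window. F09A5.3, a gene for an uncharacterized protein, and kin-20, a casein kinase I gene, had 4 each. Those of F09A5.3 had signals of 575.8, 370.7, 196.6 and 158.1, all in introns. The microRNA genes mir-54, mir-55 and mir-56, whose names the annotation gives with the prefix cel, lie in the same stretch on the other strand, 237 to 407 bp from the nearest member. Those of kin-20 were weaker, with 166.0, 152.4, 135.0 and 110.2. With 3 members each followed T04F8.9, act-4, ldb-1, tsp-21 and vab-3. act-4, an actin gene, had 164.4, 141.8 and 119.9, and ldb-1, the gene for a cofactor of LIM-homeodomain proteins, had 261.7, 109.5 and 107.2, with 72.36 and 133.8 in the replicates for the strongest. tsp-21, a tetraspanin gene, had 525.9 in an intron and 148.6 and 103.8 nearby. C34F6.7, an uncharacterized gene, had 231.5 and 225.1, and C46H3.2 had 198.5 and 126.8.

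Some microRNA genes and genes for their protein partners had members close by. Of 74 X microRNA genes, 8 had a member within 500 bp (10.8%, interval 4.78 to 20.2), 10 within 1000 bp (13.5%) and 11 within 1500 bp (14.9%). At the same distances a member lay near 2.33%, 4.28% and 6.13% of all 100 bp tiles of X, and near a transcript start of 5.71%, 7.8% and 9.23% of X protein-coding genes. The interval at 500 bp reaches below the share of protein-coding genes, and the 8 genes stand beside 5 members, since neighbouring microRNA genes share them. The nearest was mir-49, 83 bp from an intergenic member with a signal of 145.6. mir-73 and mir-74 share 1 member of signal 200.3, at 152 and 430 bp. The summit window of this member holds 28 bp of a CA run. alg-1, which encodes an Argonaute protein of the microRNA pathway, had a member of 260.6 at 734 bp upstream, with 114.9 and 141.4 in the replicates, and another of 141.3 within the gene. ain-1, the gene for a partner of ALG-1, had 177.8 and 104.3 in its window and 219.6 at 1921 bp upstream. Mature sequences were not analysed here.

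Genes of sex determination and dosage compensation on X were few, and 3 of the 6 listed were bound, against 8.6% of X genes. On the autosomes 1 of 16 genes of the same list was bound (6.25%). The list was chosen with earlier results of these data known. The bound genes on X were sdc-2, whose product directs the dosage compensation complex to X, and the X signal elements fox-1 and ceh-39. The peak of sdc-2 lay 385 bp upstream with a signal of 122.8, that of ceh-39 180 bp upstream with 112.8, and that of fox-1 in an intron with 148.8. All 3 lay below the upper quartile of X signals, 199.4. sex-1, a nuclear receptor gene and X signal element, had a member of 164.8 in an intron, 865 bp downstream of its nearest start and outside the window, with replicate values of 78.35 and 85.04. The nearest member to xol-1, the switch gene, was 4.95 kb from the gene, and that to sdc-1 was 73.5 kb away.

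Neural lists ranged from 0 bound genes to 18.2%, with few bound genes in each. Neuronal transcription factors had 3 of 33 bound (9.09%), namely ceh-40, a PBX-type homeobox gene, lsy-2, a zinc finger gene, and sox-2. Their signals were 133.9, 116.4 and 112.9. A further 4 had a member within the gene but outside the window: vab-3, unc-3, which specifies cholinergic motor neurons, lim-4 and hbl-1. unc-3 had 139.6 and lim-4 120.7, both intronic. Axon guidance and adhesion genes had 4 of 22 bound (18.2%): unc-115, with 230.8, igcm-1, syg-2 and sax-1. syg-2, an adhesion gene of synapse placement, had 116 at 86 bp upstream, with CAGATG in the window. On the autosomes the same list had 34.5% bound. dgn-1, rig-1 and egl-15 are examples of unbound genes, the first pair with a member inside the gene.

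Of the synapse and excitability list, 3 of 41 genes were bound (7.32%). inx-3, an innexin gene for gap junctions of early embryos, had 391.3 at 269 bp upstream, with CAGATG, and replicate values of 185.9 and 203.9. syd-2, the liprin-alpha gene of presynaptic assembly, had 252.2 at 468 bp upstream, and inx-2 had 122.9. Receptor subunit genes acr-12, acr-2 and acr-3 were unbound, with the nearest members 5.29, 15.7 and 22.7 kb away. Of 25 neuropeptide and receptor genes 0 were bound. The same count was found for 27 collagen genes and for 12 genes of gut, pharynx and excretory system. At the 8.6% of all X genes, lists of these sizes would hold 2.15, 2.32 and 1.03 bound genes, so the counts of 0 lie near the background. Among the unbound were elt-2, a gut GATA factor gene, flp-11 and col-164. These are counts in a mixture of all embryonic cells.

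Signalling and growth lists held few bound genes each, to be read against the 8.6% of all X genes. Wnt and polarity genes had 2 of 6 bound, kin-20 and vang-1, the Van Gogh gene of planar polarity, with 218.9 at 334 bp upstream. mom-1, the porcupine gene required to secrete Wnt proteins, had a member of 394.6 in an intron outside its window. Heparan sulfate genes had 2 of 7, the sulfotransferase genes hst-2 and hst-6, with 121.2 and 142.5. lon-2, a glypican gene, and sdn-1 were unbound and had an intronic member outside the window. Notch, EGF, FGF and TGF-beta genes had 2 of 13, ksr-1 and sem-5, both of Ras signalling, with 186.5 and 106.4. Translation genes had 3 of 5, rpl-11.2, eef-1A.2 and ife-4, with 195.7, 162.1 and 143.0. Chromatin genes had 2 of 6, lsd-1, a histone demethylase gene, with 291.4, and his-24, with 168.9. Of 3 cell cycle genes cdk-4 was bound, with 285.7. Muscle genes had 2 of 12, act-4 and sup-12. Basement membrane and attachment genes had 2 of 12, unc-97 and dim-1. Epidermal genes had 1 of 11, spc-1, with 265.6, and nuclear hormone receptor genes 1 of 23, nhr-48. All these lists were chosen with earlier results of these data known.

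E-boxes were commoner at X summits than beside them. An E-box was present in the 100 bp window of 196 members (51.2%, interval 46 to 56.3) and in 30% of windows centred 300 bp to the left in the same peaks (exact McNemar test, two-sided, p = 7.34e-10). The replicates alone gave 50% and 49.4%. For 100 bp windows elsewhere the share was 33.4% of X tiles and 37.7% of windows at X transcript starts. On the autosomes it was 52.1% at summits and 29.9% in flanks, and the difference between X and autosomes in this contrast had p = 0.924 (Fisher's exact test on the discordant peaks). No E-box was present in 187 member windows, 1 in 133, 2 in 44, 3 in 15 and 4 in 4.

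A pair of the 10 E-boxes accounted for the calls. CAGATG was present at 71 X summits (18.5%, interval 14.8 to 22.8) and in 3.66% of flanks, a ratio of 5.07 (exact McNemar test, adjusted over the 10 E-boxes, p = 1.7e-10). CAGCTG was present at 34 (8.88%) and in 1.57% of flanks, a ratio of 5.67 (exact McNemar test, adjusted p = 4.18e-05). CAGATG is in 4.05% of X tiles and 7.28% of windows at X starts, and CAGCTG in 1.78% and 2.24%. CATATG, with 3.39% and 0.783%, and CACCTG, with 6.27% and 3.39%, did not pass (exact McNemar test, adjusted p = 0.0709 and 0.224). The others did not pass either: CAAATG had a ratio of 0.8, CAACTG of 1.32, CAAGTG of 1.69, CAATTG of 1.0, CACATG of 1.29 and CACGTG of 1.14. For none of the 10 did X differ from the autosomes past the threshold (Fisher's exact test, smallest adjusted p = 0.956).

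CAGATG lay close to the summit and was commonest at strong peaks. In bins of 25 bp, it began in 5.22% and 7.31% of members directly left and right of the summit. In the bins at 100 to 125 bp to the left and right these shares were 1.57% and 1.83%. Its median distance from the summit was 20 bp in the 71 members, 36 of them within 20 bp. Only the 100 bp window was searched for that distance, which caps it, so the median alone does not show closeness. Over 4 classes of member signal it was present in 33.7%, 14.7%, 12.6% and 13.3% from the strongest class to the weakest, with intervals of 24.3 to 44.1 in the first and 7.26 to 21.6 in the last. It was in 31.2% of intronic members (20 of 64), 18.6% of intergenic ones and 11.6% of promoter members (16 of 138). Strength and location were not tested against each other.

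**Figure D4:**
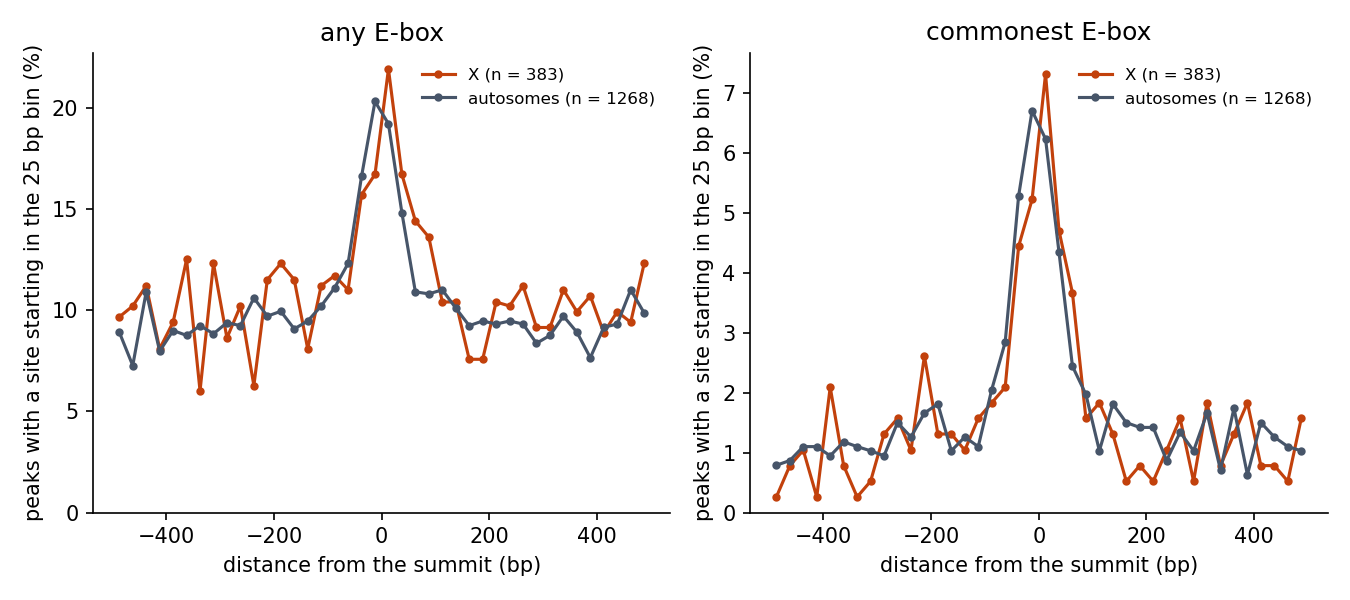
Percentage of peaks with any E-box (left) or the commonest E-box, CAGATG (right), starting in each 25 bp bin by distance from the summit, for X and autosomal peaks. In the X bin just right of the summit the shares are 21.9% and 7.31%, and both sets of peaks fall to their surroundings within about 100 bp.

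Of all strand-collapsed 6-mers tested, 365 (17.5%) were enriched at X summits, with an adjusted McNemar p under 0.05 and 1.5 times as many summit as flank windows holding it, or more. The commonest were CACACA, at 26.6% of summits and 6.01% of flanks (4.8% of X tiles), and GAGAGA, at 23% and 5.22% (4.86% of tiles). Among 6-mers found in at least 1 flank, the largest ratios were led by GACGGC at 6.01% of summits (2.72% of windows at X transcript starts), ACAGGC at 5.74% (1.78%) and AGCGGG at 5.48% (1.47%), each in 0.261% of flanks. Next came ACGCGG at 4.96% (1.74%), ACGGCC at 4.7% (1.35%), CCGACC at 4.7% (1.49%), CCGCGA at 4.7% (1.45%), ATCGCG at 4.44% (1.66%), CCCCCG at 8.88% (1.06%) and CGTACA at 4.18% (2.05%), with ratios to the flank of 16 to 19. A further 8 enriched 6-mers were in 0 flanks and have no ratio, the commonest being CGCGGC at 6.27% of summits (1.49% of windows at X transcript starts). In the other direction, 254 were depleted, among them AAAAAT, at 9.66% of summits and 44.6% of flanks. Base composition moved with these counts: median GC content was 51% at X summits, 34% in their flanks and 35.2% over the chromosome, and 357 of 383 members were richer in GC at the summit than in the flank. Its part in the list was not tested.

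Most of the 6-mers were shared with the autosomes, where 581 passed. The 298 found in both are 81.6% of the X list and 51.3% of the autosomal list, which rests on more peaks. Compared directly, none (0) of the 6-mers differed between X and autosomes by Fisher's exact test on discordant peaks after adjustment, and 159 had an unadjusted p under 0.05. The smallest adjusted p, 0.0581, belonged to AAAACT, at 1.83% of X summits and 6.94% of autosomal ones. CCCCCC was at 11.7% of X summits and 5.6% of autosomal ones, with 2.09% and 1.42% in flanks and 1.17% of X tiles.

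A small group of members held the letters of the dosage compensation recruitment motif. The 7-letter core GCGCAGG, chosen from knowledge of that motif after the peaks had been seen and searched on both strands, was present in 13 of 383 X windows (3.39%, interval 1.82 to 5.73) and in 0 of their flanks. It was in 7 of 1268 autosomal windows (0.552%, interval 0.222 to 1.13), 0.187% of X tiles and 0.313% of windows at X transcript starts. The replicates alone gave 10 and 13 on X and 7 and 6 on the autosomes. The cores are shown for 12 of the 13 with 15 letters on either side, in the orientation of the core, which is in capitals. The member left out, near R04E5.9, overlaps a UTR.
W02H3.3 X:11094212-11094248: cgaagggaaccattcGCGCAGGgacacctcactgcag
cest-16 X:6296533-6296569: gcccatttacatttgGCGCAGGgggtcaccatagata
F20B6.9 X:4209252-4209288: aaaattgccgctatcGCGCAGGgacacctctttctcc
nspc-17 X:14525886-14525922: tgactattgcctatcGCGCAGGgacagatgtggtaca
gtr-1 X:806659-806695: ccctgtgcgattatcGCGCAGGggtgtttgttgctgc
Y41G9A.17 X:2997109-2997145: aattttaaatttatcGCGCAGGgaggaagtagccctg
F22H10.2 X:16682085-16682121: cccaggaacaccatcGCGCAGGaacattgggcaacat
WBGene00020828 X:1837877-1837913: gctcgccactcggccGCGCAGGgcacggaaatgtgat
ins-39 X:1345041-1345077: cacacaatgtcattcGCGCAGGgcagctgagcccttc
sli-1 X:727864-727900: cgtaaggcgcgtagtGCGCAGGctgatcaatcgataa
dpy-23 X:4395600-4395636: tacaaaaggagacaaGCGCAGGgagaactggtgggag
xol-1 X:8036387-8036423: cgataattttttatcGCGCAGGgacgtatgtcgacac

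Of these, W02H3.3, F20B6.9, nspc-17, Y41G9A.17, F22H10.2 and xol-1 are read on the minus strand and the others on the plus strand. The letters around the core also recurred. Over all 13, C stood before the core in 10 and G after it in 11, and T stood one further letter upstream in 9. A C before the core forms CGCGCA, which was common at summits in general. It was at 15.4% of all X summits and 12.6% of autosomal ones, against 1.83% and 2.05% of flanks. The member near cest-16 held 2 cores.

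By median, these members were stronger and farther from protein-coding transcript starts than the rest, given here as a description with no test. Their median signal was 219.0, against 143.0 for the 370 others, and 5 of the 30 strongest members on X held the core. The strongest, near W02H3.3, cest-16 and F20B6.9, had signals of 394.9, 394.6 and 393.7, and the weakest, near xol-1, had 118.2. In replicate 1 those of the first 3 were 197.6, 177.6 and 194.3 and in replicate 2 they were 200.8, 222.6 and 196.8. Of the 13, 9 were intergenic, 2 intronic, 1 in a promoter and 1 in a pseudogene. Their median distance from a transcript start was 2570 bp against 798 bp. It ran from 21 bp near R04E5.9 to 6240 bp near dpy-23. An E-box was in 6 of the 13 windows and CAGATG in 1, near nspc-17, whereas 190 of the 370 others held an E-box and 70 held CAGATG.

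Counted over the genome, the core occurs 357 times on X and 1642 times on the autosomes. Of the X sites 15 lay within 50 bp of the summit of a kept thresholded peak (4.2%, interval 2.37 to 6.84), against 7 of the autosomal sites (0.426%, interval 0.172 to 0.876). In the pooled list, which includes background regions, the counts were 46 (12.9%) and 142 (8.65%). Extended by the letters most common beside it in these members, to CGCGCAGGG, it occurs 33 times on X, with 10 at thresholded and 16 at pooled summits. On the autosomes it occurs 44 times, with 0 at either. The extension was read from the X members themselves, so the X counts are not independent of it. The members were not matched against a list of known recruitment elements.

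**Figure D5:**
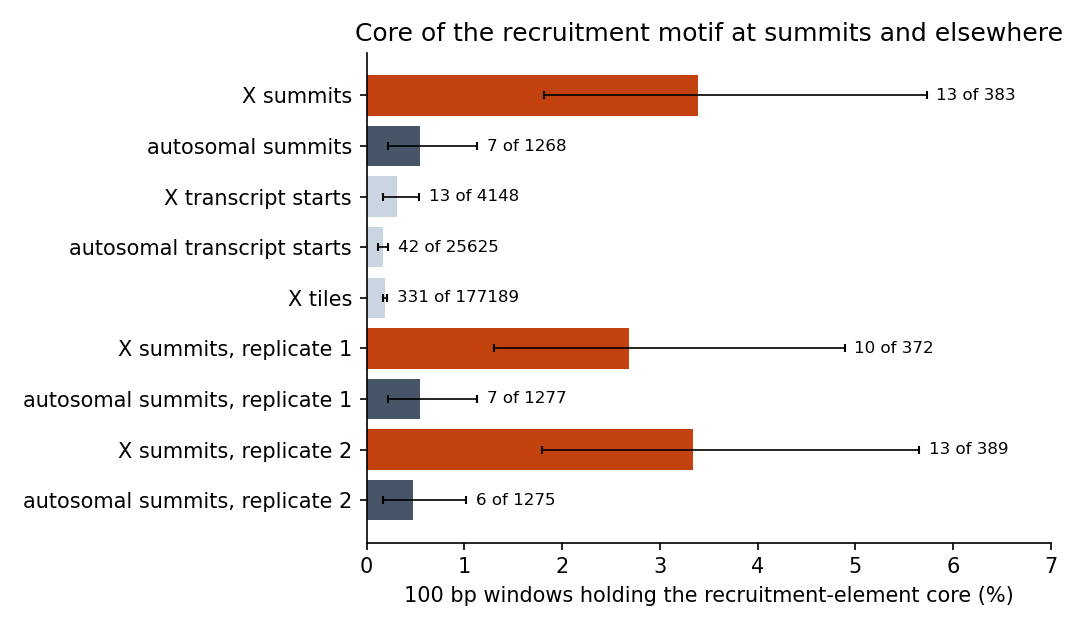
Percentage of 100 bp windows that hold the recruitment-element core (horizontal axis, bars with 95% exact intervals and counts) at X and autosomal summits of the thresholded list and of each replicate alone, at transcript starts and in X tiles. The 3 X summit bars lie between 2.69% and 3.39%, and the autosomal summit bars between 0.471% and 0.552%.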

How the data were processed

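ChIP-seq peak lists of 2 biological replicates of 1 group were used. Per the labels the authors deposited a list for each replicate and for the pooled reads, which hold peaks and background as input for irreproducible discovery rate (IDR) thresholding, and the thresholded list on ce11. The signal in each list is the authors' deposited enrichment value, with no stated scale. The authors' −log10 q-values were read but not used to rank peaks. Aligner, peak caller and IDR limit: not given in the sources used here. Depth is unknown from peak lists, so intervals cover the counting of peaks only.

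Summits were taken from the deposited positions, placed on Ensembl genes of WBcel235 (the same assembly as ce11) and read from the RefSeq sequence. Each summit got 1 category by precedence: promoter, 5′ UTR, coding exon, 3′ UTR, intron, then other gene, and otherwise intergenic. Each replicate's values used its 1964 strongest regions. Differences between X and autosomal peaks were tested by Fisher's exact test and summits against flanks by the exact McNemar test, both two-sided, with Benjamini-Hochberg adjustment and a threshold of 0.05 (Python 3.11.15, scipy 1.17.1). The 6-mer step was tried on flank windows of the X peaks, compared with other flank windows, without and with 6-mers planted in them. Recovery of planted ones was judged by a Bonferroni limit, and summit windows were not part of this trial. Neighbouring peaks are not independent, so these p-values are too small to an unknown extent. Agreement of the replicates is built into the thresholded list.

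Members and gene lists were chosen with earlier results of these data known, and lists are given by counts only. Named genes are those nearest the 20 strongest members, up to 4 bound and 3 unbound genes per list, the genes with most members and those of the densest 100 kb windows, and other genes named beside a member were chosen after their values were seen. Alternatives concerned the peak list, the removal distance, each replicate, merging, promoter, gene and sequence windows and flanks. Windows with over 30 bp of UTR were not printed.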

Additional observations from a re-analysis of the deposited data

How the results depend on the processing

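The E-box and CAGATG shares at X summits kept their direction and passed the threshold in all 10 alternatives each. The X share of peaks ranged from 22.6% to 23.4% over the replicates taken alone and was 24.5% with no removal near non-coding RNA genes. The promoter share on X differed from the autosomes with no removal (30.7% and 38.6%, adjusted Fisher's exact p = 0.00748) and with promoters of 250 bp upstream to 50 bp downstream (20.4% and 28.2%, adjusted p = 0.00808). The intergenic share was 30.9% to 34.2% over the replicates alone, and the difference passed in replicate 2 (Fisher's exact test, adjusted p = 0.0372). The share in other genes did not pass with the stronger 50% of the peaks (7.87%) or the wider promoter window (6.79%). Bound X genes numbered 111 with the stronger 50% of the peaks and 151 with gene windows of 500 bp upstream to 250 bp downstream. Enriched 6-mers numbered 100 with that 50%, where 178 X peaks remain, and 120 with 50 bp windows. The strong share turned to 8.88% against 10.3% among the 165 strongest and to 21.3% against 26.2% within the stronger 50%, and neither passed. The core motif share was 2.35% in 50 bp and 4.7% in 200 bp windows and 5.62% in the stronger 50%. The cause of these changes was not tested. The alternatives for 6-mers, the core and other genes, and those for strength and replicate sharing other than their cutoffs, were chosen after seeing the data. No paired analysis was possible because both replicates belong to 1 group.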
